A study of Mus musculus with 6 samples.

Results

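The genes described here are 10 transcription factors that mark the lineage of cerebellar granule cells, Pax6, Zic1, Zic2, Zic4, Etv1, Barhl1, Meis1, En2, Nfia and Nfib, taken by symbol from a count table of 24594 genes. All 10 were found and all passed the filter on low counts. Nuclear RNA had been sequenced from sorted NeuN-positive nuclei of the cerebellum of mice aged 7 months. The groups were 3 libraries with genotype Ezh1(cKO/cKO);Neurod1-Cre (cKO) and 3 with genotype Ezh1(wt/wt);Neurod1-Cre (WT), so both groups carried the Cre. Ezh1 is one of the alternative enzymes by which Polycomb complex PRC2 places the repressive mark H3K27me3. The study asked whether long-term upkeep of that mark is needed for gene regulation in neurons that no longer divide. The sources used here do not say how the Cre was built, which exons were floxed or whether each library came from 1 animal.

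Granule cells, the most numerous neurons of the cerebellum, are glutamatergic and descend from progenitors of the rhombic lip that express Atoh1. Zic zinc finger proteins, the paired-box factor Pax6, the homeodomain factors Meis1 and Barhl1 and the hindbrain territory factor En2 act in those progenitors and many stay on in the mature neuron. The nuclear factor I proteins Nfia and Nfib and the ETS factor Etv1 are known in mice for timing the late steps of granule cell maturation. Genes for developmental transcription factors are classic Polycomb targets in cells that do not express them, whereas these genes are active in granule cells.

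The libraries held 6340236 to 6827022 counts in cKO and 6682805 to 8284768 in WT. The targeted gene Ezh1 had 52.5, 51.0 and 55.6 CPM (counts per 1000000 counts of a library) in the cKO libraries, against 71.0, 75.7 and 83.3 CPM in the WT libraries, and the genotypes did not overlap (log2 fold change -0.53, SE 0.10, edgeR adjusted p = 0.00672). That call was lost without cKO replicate 1 (adjusted p = 0.0833) and without WT replicate 3 (adjusted p = 0.115). A count over the whole gene takes in any exons left in place. Replicate 1 of each genotype had Xist at a high level, 831 CPM in cKO and 811 in WT, and the other 4 libraries had 1.39 to 4.46 CPM, so each genotype held 1 library of that kind. Nothing in the labels says that libraries came from separate animals, so p-values measure the spread between these samples, which may be in part technical.

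RefSeq promoter windows of GRCm38.p6 (250 bases before to 50 after a start) were found for 7 of the 10 genes, 10 windows in all. Those of Zic1, Zic4 and Etv1 are shown because Zic1 and Zic4 are neighbours whose balance is measured below and Etv1 had the highest fold change of the 10. Each runs 5′ to 3′ in the direction of the gene, and capitals mark CG dinucleotides.
Zic1 (chr9:91365719-91366018, minus strand): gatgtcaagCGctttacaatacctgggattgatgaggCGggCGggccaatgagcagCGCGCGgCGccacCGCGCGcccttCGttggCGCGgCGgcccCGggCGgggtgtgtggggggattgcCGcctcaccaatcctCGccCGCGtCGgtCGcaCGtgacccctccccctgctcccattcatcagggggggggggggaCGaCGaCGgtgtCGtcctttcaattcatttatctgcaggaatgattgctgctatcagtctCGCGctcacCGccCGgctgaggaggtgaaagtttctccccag
Zic4 (chr9:91368722-91369021, plus strand): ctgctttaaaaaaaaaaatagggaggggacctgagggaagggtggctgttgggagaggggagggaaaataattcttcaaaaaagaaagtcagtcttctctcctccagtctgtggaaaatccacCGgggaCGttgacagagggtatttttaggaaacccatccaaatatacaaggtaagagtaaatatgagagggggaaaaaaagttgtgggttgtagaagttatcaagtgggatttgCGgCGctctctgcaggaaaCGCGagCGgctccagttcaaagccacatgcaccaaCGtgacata
Etv1 (chr12:38779832-38780131, plus strand): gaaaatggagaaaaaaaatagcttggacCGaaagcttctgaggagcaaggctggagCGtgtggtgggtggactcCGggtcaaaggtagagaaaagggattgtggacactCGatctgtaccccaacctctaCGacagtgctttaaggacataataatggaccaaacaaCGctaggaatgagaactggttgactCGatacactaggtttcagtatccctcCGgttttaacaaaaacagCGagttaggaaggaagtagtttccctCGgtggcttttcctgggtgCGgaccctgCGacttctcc
The Zic1 window held 31 CG dinucleotides, the Zic4 window 8 and this Etv1 window 12. The Zic4 window is that of a start inside the gene, whose annotated span begins at 91365631, next to the Zic1 window. No window at that outer end of Zic4 was among the 10, so these counts do not compare the outer ends of the 2 genes. The median was 13 over the 10 windows of these genes and 7 over all 32851 windows. GC content was 65.3% for Zic1, 46.0% for Zic4 and 48.7% for Etv1, with a median of 52.7% over all windows. The sequences were searched on both strands for 4 short motifs bound by the families of these factors. TTGGC, the core of nuclear factor I sites, was in 3 of the 10 windows and in 46.7% of all windows. TGACAG, a site of Meis proteins, was in 3 of 10 and in 19.2% of all, GGAAGT, an ETS core, in 3 of 10 and in 23.8%, and TAATTA, a homeodomain core, in 1 of 10 and in 5.29%. A match describes letters in the window, not a site in use.

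Levels of the 10 genes differed little between the genotypes. None was called at an edgeR adjusted p below 0.05, against 0.579% of the 13115 genes tested. DESeq2, which gave an adjusted p to 9 of the 10, and limma-voom likewise called 0, against 3.05% of the genes to which DESeq2 gave an adjusted p and 0.320% of those that limma-voom tested. Etv1 alone had an unadjusted p below 0.05, 1 of 10, and over all tested genes that share was 11.9%. The log2 fold change of cKO over WT was positive for 7 and negative for 3 of the 10, with a median of 0.05, and over all tested genes 48.8% were positive with a median of -0.01. Bulk libraries cannot tell fewer cells of a type from less RNA per cell, so a level here is an average over the sorted nuclei. For every one of the 10 the 95% interval lay within 1.5-fold in either direction, a range that held the interval of 54.5% of all tested genes, and 81.0% lay within 2-fold. Precision rises with level, and among the 5597 tested genes with means between 20.7 and 399 CPM, the range of the 10, 91.5% had an interval that narrow. The median absolute log2 fold change was 0.10 for the 10 genes and 0.11 for genes of that range, of which edgeR called 1.07%.

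**Figure D1:**
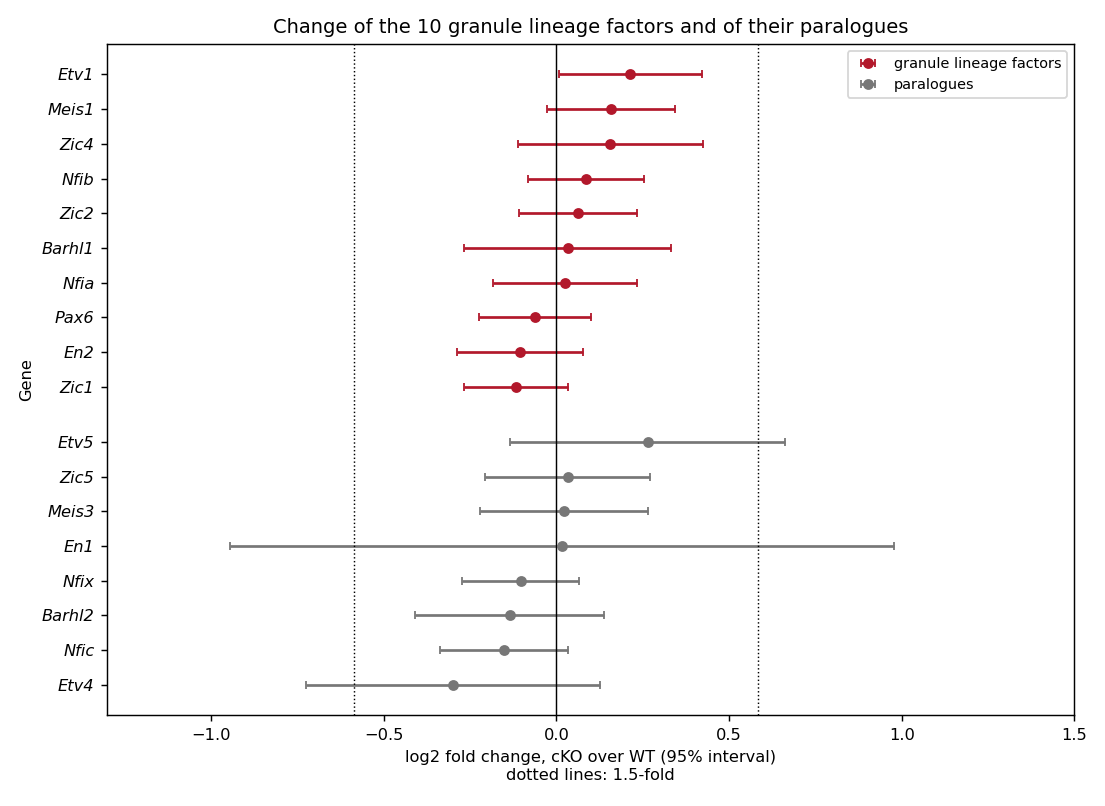
Log2 fold change of cKO over WT (horizontal axis) with its 95% interval from the edgeR fit for the 10 granule lineage factors (red) and for 8 of their paralogues (grey); Meis2 is left off the plot because its interval runs from -0.04 to 3.62. Dotted lines mark 1.5-fold, and the 10 red intervals lie inside them, from Etv1 at 0.21 to Zic1 at -0.12.

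Zic1, Zic2 and Zic4 encode zinc finger proteins of granule cell progenitors and neurons, and mutation of Zic1 and Zic4 impairs growth of the mouse cerebellum. Zic1 (NCBI gene 22771; RefSeq GRCm38.p6 chromosome 9, 91358058 to 91365768, the build of all positions given here) had 376, 408 and 363 CPM in the cKO libraries, against 429, 397 and 418 CPM in the WT libraries. The genotypes overlapped, with cKO replicate 2 above WT replicate 2 (log2 fold change -0.12, SE 0.07, 95% interval -0.27 to 0.03, edgeR adjusted p = 0.572). Zic4 (22774, chromosome 9, 91365631 to 91389351) lies beside Zic1 on the opposite strand and shares 138 annotated bases with it, where reads can be told apart only by strand, whose use is not given. It had 42.2, 42.9 and 36.8 CPM in the cKO libraries, against 41.9, 30.4 and 37.3 CPM in the WT libraries. WT replicate 2 was the low one and the other 5 libraries lay close together (log2 fold change 0.16, SE 0.13, 95% interval -0.11 to 0.42, edgeR adjusted p = 0.697). Without WT replicate 2 the log2 fold change of Zic4 was 0.041, and without WT replicate 1 it was 0.26. Zic2 (22772, chromosome 14, 122475384 to 122480328) had 97.6, 103 and 97.4 CPM in the cKO libraries, against 96.6, 95.02 and 93.3 CPM in the WT libraries. It was the 1 gene of the 10 whose genotypes did not overlap, and over all tested genes 16.3% were separated so, 7.88% higher and 8.39% lower in cKO. Among tested genes in the CPM range of the 10 the separated share was 20.3%. The difference in Zic2 was small all the same, at a log2 fold change of 0.06 (SE 0.08, 95% interval -0.11 to 0.23, edgeR adjusted p = 0.830).

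**Figure D2:**
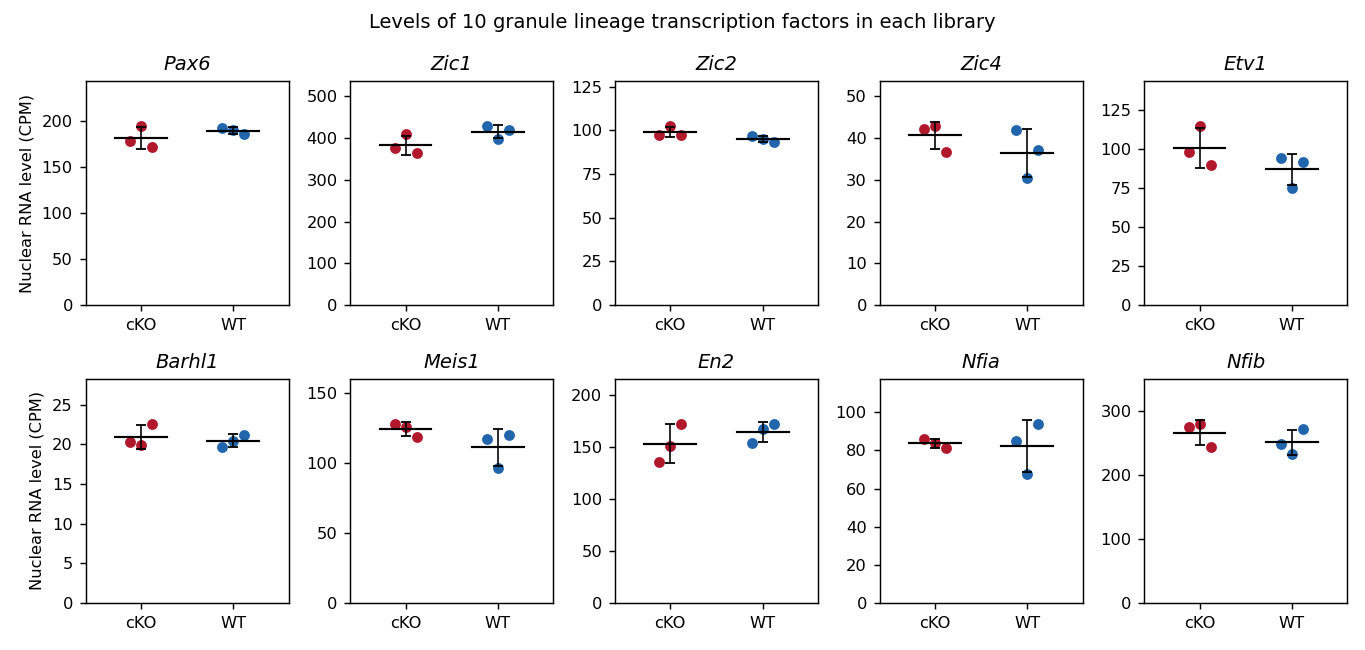
Level of each gene in CPM (vertical axis, from 0) in the 3 cKO libraries (red, left) and the 3 WT libraries (blue, right) of each panel, points in order of replicate number; the long bar is the mean and the whiskers are 1 SD. The libraries overlap for every gene but Zic2, whose means are 99.2 CPM in cKO and 94.97 in WT.

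Pax6 is a regulator of granule cell migration, and Barhl1, a target of Atoh1 in mice, is needed for the migration and survival of the cells. Pax6 (18508, chromosome 2, 105668896 to 105698410) had 178, 195 and 172 CPM in the cKO libraries, against 193, 190.5 and 186 CPM in the WT libraries. The WT values lay inside the range of the cKO values (log2 fold change -0.06, SE 0.08, 95% interval -0.22 to 0.10, edgeR adjusted p = 0.823). Without cKO replicate 2 the log2 fold change of Pax6 was -0.11, and without cKO replicate 3 it was -0.021. Barhl1 (54422, chromosome 2, 28907680 to 28917984) was the least counted of the 10, with 141, 129 and 147 counts in the cKO libraries, against 130, 147 and 175 counts in the WT libraries. The level of Barhl1 was 20.9 ± 1.47 CPM in cKO and 20.5 ± 0.80 in WT (SD, n = 3 each), and its 95% interval ran from -0.27 to 0.33 on the log2 scale.

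Meis1 is a TALE homeodomain protein which in mouse granule cell precursors acts on Pax6 and bone morphogenetic protein signalling. Meis1 (17268, chromosome 11, 18880428 to 19019651) had 128, 126 and 118 CPM in the cKO libraries, against 117, 96.1 and 120.1 CPM in the WT libraries. WT replicate 2 was low, and cKO replicate 3 lay between WT replicates 1 and 3 (log2 fold change 0.16, SE 0.09, 95% interval -0.03 to 0.34, edgeR adjusted p = 0.519). Without WT replicate 2 its log2 fold change was 0.06. En2, the engrailed homeodomain factor of the midbrain and cerebellum (13799, chromosome 5, 28165696 to 28172190), had 136, 151 and 173 CPM in the cKO libraries, against 154, 168 and 172 CPM in the WT libraries. The cKO libraries spanned the wider range, with both the lowest and the highest value (log2 fold change -0.11, SE 0.09, 95% interval -0.29 to 0.08, edgeR adjusted p = 0.698). Without cKO replicate 1 the log2 fold change of En2 was -0.024, and without cKO replicate 3 it was -0.20.

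Etv1, an ETS factor whose expression in maturing granule neurons responds to activity, had the highest fold change of the 10. Etv1 (14009, chromosome 12, 38780082 to 38870483) had 98.1, 115 and 89.7 CPM in the cKO libraries, against 94.1, 75.4 and 91.5 CPM in the WT libraries. The genotypes overlapped, since cKO replicate 3 lay below WT replicates 1 and 3. The mean was 16.0% higher in cKO (log2 fold change 0.21, SE 0.10, 95% interval 0.01 to 0.42), with an unadjusted p of 0.0433 that did not pass adjustment over all genes (edgeR adjusted p = 0.401). Without cKO replicate 2 the log2 fold change was 0.11, and without WT replicate 2 it was 0.12.

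Nfia and Nfib bind the same DNA sites as dimers and are also expressed in glia. Nfib (18028, chromosome 4, 82290173 to 82506751) had 274, 280.0 and 243 CPM in the cKO libraries, against 249, 232 and 271 CPM in the WT libraries (log2 fold change 0.09, SE 0.08, 95% interval -0.08 to 0.25, edgeR adjusted p = 0.735). Without WT replicate 2 the log2 fold change of Nfib was 0.034, and without cKO replicate 3 it was 0.15. Nfia (18027, chromosome 4, 97578066 to 98118876) had 85.9, 83.8 and 81.4 CPM in the cKO libraries, against 85.1, 67.4 and 94.1 CPM in the WT libraries. Its cKO libraries lay within a narrow band inside the WT range, which WT replicates 2 and 3 set (log2 fold change 0.03, SE 0.10, 95% interval -0.18 to 0.23, edgeR adjusted p = 0.953). Its sign turned without WT replicate 2, at a log2 fold change of -0.10. Summed over 9 markers of astrocytes and Bergmann glia, the level was 145 to 157 CPM in cKO and 120.1 to 156 in WT, lowest in WT replicate 2. Over 9 oligodendrocyte markers it was 305 to 689 CPM in cKO and 251 to 446 in WT, highest in cKO replicate 3, with 9 of 9 log2 fold changes positive and 0 called by edgeR (0 with an unadjusted p below 0.05). The part of such nuclei in the levels of Nfia and Nfib was not tested.

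High and low values of the 10 genes gathered in a pair of libraries. WT replicate 2 had the lowest level of the 6 libraries for 5 of the 10 genes (Zic4, Etv1, Meis1, Nfia and Nfib), and for 20.7% of all tested genes, while it had the highest for 21.6% of them. The highest level lay in cKO replicate 2 for 5 of the 10 (Pax6, Zic2, Zic4, Etv1 and Nfib), and for 16.6% of all tested genes. Counts of the 10 genes together were 0.146%, 0.156% and 0.139% of the cKO libraries, against 0.146%, 0.135% and 0.150% of the WT libraries.

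**Figure D3:**
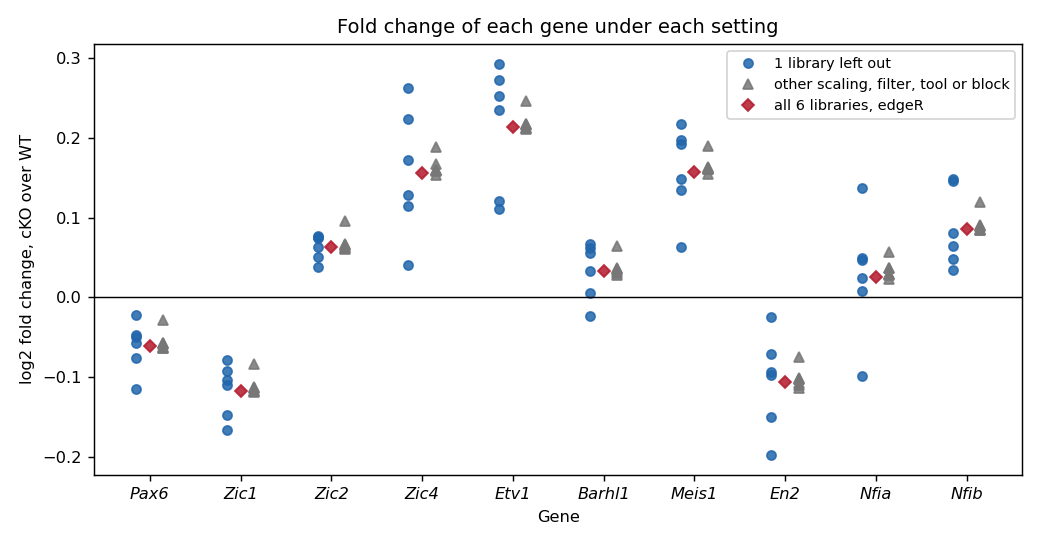
Log2 fold change of cKO over WT (vertical axis) for each gene in the edgeR fit of all 6 libraries (red diamonds), with 1 library left out (blue circles) and under other scalings, filters, tools or the replicate block (grey triangles). Barhl1 and Nfia change sign, each when a single library is left out, and the other 8 genes keep their sign in all 13 alternatives.

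Ratios between genes of the same library do not depend on how libraries are scaled, and 4 were compared. Zic4 counts were 0.112, 0.105 and 0.101 of Zic1 counts in the cKO libraries, against 0.0976, 0.0765 and 0.0891 in the WT libraries. Every cKO library lay above every WT library, a difference of 0.28 on the log2 scale (exact two-sided permutation p = 0.1, the smallest that 3 against 3 libraries can give; 0.2 adjusted over the 4 ratios). Zic2 counts were 0.260, 0.251 and 0.268 of Zic1 counts in the cKO libraries, against 0.225, 0.239 and 0.223 in the WT libraries. These too did not overlap, with a difference of 0.18 on the log2 scale (exact permutation p = 0.1, adjusted 0.2). Both ratios have Zic1 in the denominator, so they are not independent, and this design cannot take either below 0.05. The Nfib to Nfia ratio was 3.17 ± 0.175 in cKO and 3.08 ± 0.312 in WT (SD, n = 3 each; exact permutation p = 0.7, adjusted 0.8). The En2 to Pax6 ratio was 0.848 ± 0.136 in cKO and 0.870 ± 0.0645 in WT (exact permutation p = 0.8, adjusted 0.8). Neither of these differed beyond the spread between libraries.

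**Figure D4:**
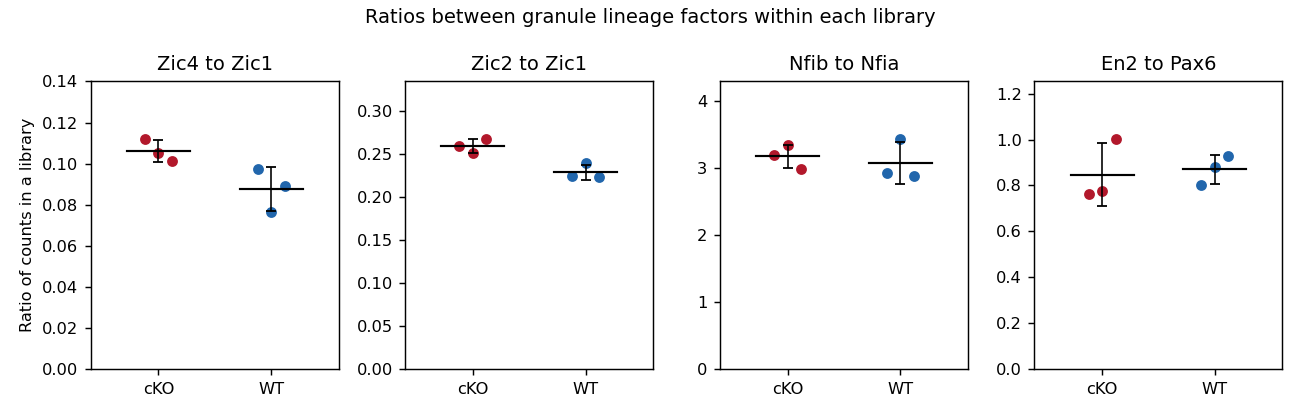
Ratio of the counts of 2 genes within each library (vertical axes, from 0) for the 3 cKO (red, left) and 3 WT libraries (blue, right), with mean and 1 SD. The Zic4 to Zic1 and Zic2 to Zic1 ratios do not overlap between genotypes, and the other 2 do.

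Divided by exon length, from the GENCODE vM21 annotation of GRCm38, levels spread over more than an order of magnitude. Zic1 was highest at 67.2 ± 4.09 CPM per kb of exon in cKO and 72.9 ± 2.83 in WT. En2 followed at 43.3 ± 5.25 in cKO and 46.6 ± 2.66 in WT, and Zic2 at 34.4 ± 1.01 in cKO and 33.0 ± 0.557 in WT. Then came Nfib (17.8 in cKO and 16.7 in WT), Pax6 (15.5 in cKO and 16.2 in WT), Meis1 (11.8 in cKO and 10.6 in WT), Nfia (7.69 in cKO and 7.55 in WT), Etv1 (7.59 in cKO and 6.54 in WT) and Barhl1 (5.36 in cKO and 5.24 in WT). Zic4 was lowest at 3.93 ± 0.324 in cKO and 3.53 ± 0.559 in WT. Neighbours in this order did not overlap in either genotype, apart from Nfib with Pax6 and Nfia with Etv1, whose libraries overlapped in both. The sources used here do not say whether intron reads were counted. Per kb of gene span, introns included, Zic1, En2 and Zic2 were again the highest and Nfia, whose gene spans 541 kb, was the lowest at 0.155 in cKO and 0.152 in WT.

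**Figure D5:**
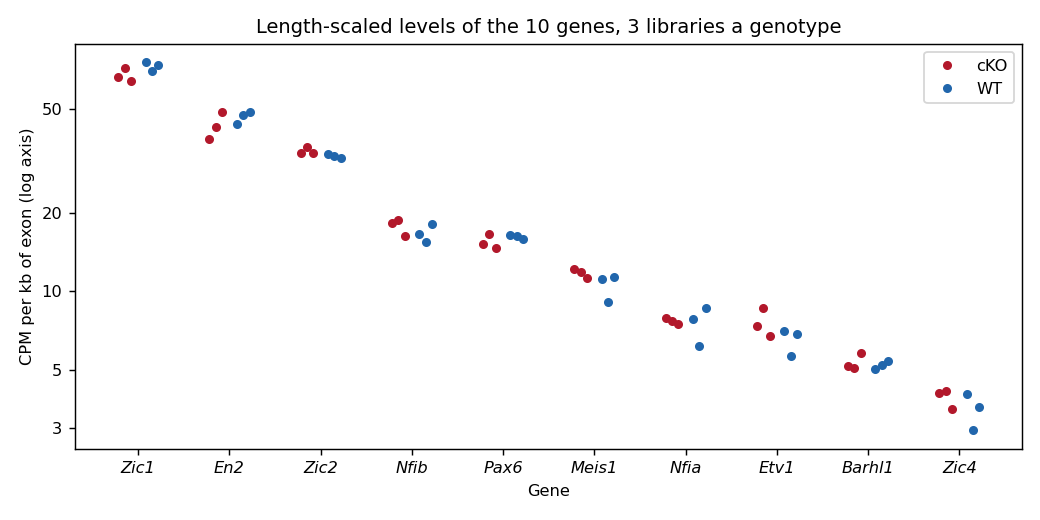
Level per kb of exon (vertical log axis) of the 10 genes, ordered by their mean, in 3 cKO libraries (red, left) and 3 WT libraries (blue, right). Levels fall from Zic1 at 67.2 CPM per kb in cKO to Zic4 at 3.93 CPM per kb in cKO, and the genotypes lie close together for each gene.

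Within families, most of the summed exon-scaled level of Zic1, Zic2, Zic4 and Zic5 came from Zic1, with 58.5 ± 0.580% in cKO and 61.5 ± 0.768% in WT (SD, n = 3 each), and from Zic2, with 30.02 ± 0.690% in cKO and 27.9 ± 0.838% in WT. Zic5 held 8.03% in cKO and 7.61% in WT, and Zic4 3.42% in cKO and 2.97% in WT. Nfix was the leading nuclear factor I gene with 41.1% in cKO and 42.3% in WT, followed by Nfic (27.1% in cKO and 28.8% in WT), Nfib (22.2% in cKO and 19.9% in WT) and Nfia (9.61% in cKO and 8.98% in WT). En2 held 95.6% in cKO and 96.0% in WT of the engrailed pair. Barhl1 was the lesser of its pair, with 24.0% in cKO and 21.9% in WT beside Barhl2. Meis1 and Meis3 shared their family nearly evenly, with Meis1 at 47.3% in cKO and 45.3% in WT.

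Of 9 paralogues (Zic5, Nfic, Nfix, Meis2, Meis3, En1, Barhl2, Etv4 and Etv5), all were tested and none was called by edgeR, 5 had a positive and 4 a negative log2 fold change, and 0 had an unadjusted p below 0.05. DESeq2, which gave 5 of them an adjusted p, and limma-voom called 0. Nfix was at 243 ± 26.8 CPM in cKO and 261 ± 8.62 in WT (log2 fold change -0.10), and Nfic at 144 ± 15.2 CPM in cKO and 160.3 ± 16.1 in WT (-0.15). Zic5 (0.03), Meis3 (0.02) and Barhl2 (-0.14) had intervals within 1.5-fold, and En1 (0.02), Etv4 (-0.30) and Etv5 (0.26) did not. Meis2, a TALE factor of other neurons, set 1 library apart. It had 53, 4 and 11 counts in the cKO libraries, against 5, 11 and 5 counts in the WT libraries. Its log2 fold change of 1.79 (edgeR adjusted p = 0.438) was 0.27 without cKO replicate 1. Meis2 passed edgeR's threshold with no filter on low counts (adjusted p = 0.0384) and without cKO replicate 2 (adjusted p = 0.0451), fits that keep cKO replicate 1.

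Pknox proteins are TALE homeodomain relatives of Meis1 that, like it, bind DNA together with Pbx proteins. Of 7 TALE genes examined (Pbx2, Pbx3, Pbx4, Pknox1, Pknox2, Tgif1 and Tgif2) 6 were tested, edgeR called 0, 1 had an unadjusted p below 0.05, and 3 had a positive and 3 a negative log2 fold change, with a median of 0.02. DESeq2 gave none of them an adjusted p, and limma-voom called 0. Pknox1 was at 24.5 ± 3.11 CPM in cKO and 18.5 ± 0.814 in WT (log2 fold change 0.41, edgeR adjusted p = 0.240). Pknox2 was at 33.5 ± 2.50 CPM in cKO and 28.8 ± 1.12 in WT (0.22, edgeR adjusted p = 0.519), and in both Pknox genes every cKO library lay above every WT library. Pknox2 was named after its values were seen.

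Of 25 other granule lineage factors 22 were tested, with 1 called higher and 1 lower, 5 at an unadjusted p below 0.05 and a median log2 fold change of 0.03. Over all tested genes 0.579% were called and 11.9% had an unadjusted p below 0.05. The list was chosen with earlier results of these data known. The called genes were the bHLH factor genes Neurod1 (307 ± 17.7 CPM in cKO and 142 ± 10.4 in WT, log2 fold change 1.11, edgeR adjusted p = 8.03e-10) and Neurod2 (63.8 ± 3.98 CPM in cKO and 86.3 ± 7.95 in WT, -0.44, edgeR adjusted p = 0.0269). Both groups carried Neurod1-Cre, whose build and dose in each library are not given. Any part of the Cre allele in the Neurod1 counts cannot be told apart from genotype and was not tested. Neurod2 lost its call without cKO replicate 1, cKO replicate 3, WT replicate 2 or WT replicate 3 (edgeR adjusted p of 0.114 to 0.212) and with limma-voom (0.0692). Atoh1, the factor of dividing progenitors, had 0, 0 and 1 counts in the cKO libraries and 1, 1 and 0 counts in the WT libraries.

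Genes reported in mouse granule neurons to depend on nuclear factor I or Etv1 were examined beside them. Of 7 such genes (Gabra6, Grin2c, Wnt7a, Tiam1, Cdh2, Cntn2 and Efnb1) edgeR called 0, 1 had an unadjusted p below 0.05, 1 had a positive and 6 a negative log2 fold change, and the median was -0.05. DESeq2, which gave 5 of the 7 an adjusted p, and limma-voom called 0 of them. The positive one was Cdh2, which encodes N-cadherin, at 68.5 ± 4.42 CPM in cKO and 58.3 ± 8.10 in WT (0.23, edgeR adjusted p = 0.383). Tiam1, a Rac exchange factor gene, was at 545 ± 56.9 CPM in cKO and 584 ± 25.2 in WT (-0.10, edgeR adjusted p = 0.661). Of 14 genes of bone morphogenetic protein signalling 11 were tested and edgeR called 0, and none reached an unadjusted p of 0.05. DESeq2, which gave only 2 of them an adjusted p, and limma-voom called 0. Smallest in p were Id3 (log2 fold change -0.99, edgeR adjusted p = 0.464) and the receptor gene Bmpr2 (0.15, edgeR adjusted p = 0.650). Among 8 other Pax genes only Pax2 (9.90 ± 1.06 CPM in cKO and 11.7 ± 1.97 in WT) and Pax3 (5.42 ± 1.23 CPM in cKO and 6.47 ± 1.82 in WT) passed the filter, and neither was called (edgeR adjusted p = 0.686 for Pax2 and 0.781 for Pax3, 0 with an unadjusted p below 0.05).

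The sorted nuclei carried granule cell markers. Gabra6, the GABA-A receptor subunit gene that defines mature granule cells, was at 157 ± 5.54 CPM in cKO and 159 ± 8.77 in WT, and Rbfox3, which encodes the sorted antigen NeuN, at 891 ± 48.8 CPM in cKO and 887 ± 39.6 in WT. Of 13 granule cell markers, which include Pax6 and Etv1 themselves, edgeR called Neurod1 alone, with the limit from the Cre given above. Some of the 10 factors are also known from other cells, Pax6 from unipolar brush cells and Zic1 from interneurons and meninges. EdgeR called no gene of the lists for other cells, though single markers within them lay apart between the genotypes. Of 5 unipolar brush cell genes 2 were tested and 1 had an unadjusted p below 0.05. That gene was Eomes, the defining factor of those cells, at 20.5 ± 1.55 CPM in cKO and 10.3 ± 4.92 in WT, with no overlap (log2 fold change 1.00, edgeR adjusted p = 0.0868, limma-voom adjusted p = 0.0466). The other tested gene, Calb2, was at 28.6 ± 8.93 CPM in cKO and 25.5 ± 2.14 in WT, with overlap (0.16, edgeR adjusted p = 0.774). The 5 genes summed to 43.4 to 57.1 CPM in cKO and 34.4 to 41.1 in WT, with no overlap. That sum includes Eomes and is not separate from its difference.

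The 9 Purkinje cell genes summed to 94.0 to 131 CPM in cKO and 119.6 to 139 in WT, with 3 positive and 6 negative log2 fold changes. The homeodomain factor gene Lhx1 was at 41.7 ± 1.77 CPM in cKO and 55.9 ± 5.87 in WT, with no overlap (-0.42, edgeR adjusted p = 0.0829, DESeq2 adjusted p = 0.0495). Its relative Lhx5 was at 4.08 ± 1.199 CPM in cKO and 7.08 ± 1.59 in WT, with no overlap (-0.78, edgeR adjusted p = 0.264). The 3 Purkinje cell genes with a positive log2 fold change were Foxp2 (0.72), Skor2 (0.63) and Pcp2 (0.33). Each of these 3 overlapped between the genotypes, so the list did not move in a single direction. The 10 genes of vessels, meninges and choroid plexus summed to 19.3 to 29.6 CPM in cKO and 29.0 to 39.0 in WT, where cKO replicate 3 lay above WT replicate 3. All 5 that were tested had a negative log2 fold change, with a median of -0.45. The forkhead genes Foxd1 (1.49 ± 0.583 CPM in cKO and 4.47 ± 1.68 in WT, -1.56, edgeR adjusted p = 0.0881) and Foxc1 (6.05 ± 1.10 CPM in cKO and 9.64 ± 1.72 in WT, -0.68, edgeR adjusted p = 0.233) did not overlap between genotypes. Ttr and Cldn5, which mark choroid plexus and endothelium, had 0 to 4 counts in a library.

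For 9 interneuron genes the sums were 141 to 153 CPM in cKO and 139 to 169 in WT, and the smallest p values were those of Gad2 (0.54, no overlap, edgeR adjusted p = 0.329) and Tfap2b (-0.26, edgeR adjusted p = 0.665). In the glial lists they were those of Slc1a2 (0.37, edgeR adjusted p = 0.275) and Aqp4 (-0.42, edgeR adjusted p = 0.512) for astrocytes, and of Olig1 (0.35, edgeR adjusted p = 0.729) and Mobp (0.58, edgeR adjusted p = 0.770) for oligodendrocytes. For 6 microglial genes the sums were 17.0 to 22.8 CPM in cKO and 14.6 to 28.1 in WT. Only 2 of them were tested, P2ry12 (0.32, edgeR adjusted p = 0.685) and Csf1r (0.03, edgeR adjusted p = 0.979). The part of these cells in the levels of the 10 genes was not tested.

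Genes that overlap the 10 or lie within 20 kb of them were also counted where the table holds them. Beside Zic2, the long noncoding RNA 2610035F20Rik was at 21.2 ± 2.95 CPM in cKO and 17.6 ± 1.62 in WT (log2 fold change 0.26, edgeR adjusted p = 0.547), Zic5 at 45.1 ± 2.84 CPM in cKO and 44.1 ± 4.63 in WT, and Pcca at 128 ± 7.78 CPM in cKO and 137 ± 11.0 in WT. Around Pax6, the noncoding Paupar was at 5.01 ± 0.727 CPM in cKO and 5.67 ± 2.49 in WT, the overlapping Pax6os1 at 1.504 ± 0.101 CPM in cKO and 1.91 ± 1.19 in WT, and Elp4, which overlaps Pax6 by 1091 bases, at 15.5 ± 1.53 CPM in cKO and 16.5 ± 3.87 in WT. Ddx31 near Barhl1 had a log2 fold change of -0.12 and Gm11266 near Nfib one of -0.24, and E130114P18Rik, inside the span of Nfia, fell below the filter with 1 to 14 counts in a library. EdgeR called none of the tested neighbours, and none had an unadjusted p below 0.05.

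The genes whose levels followed Etv1 most closely over the 6 libraries were Rnft2 (Pearson r of log2 CPM 0.994), Zdhhc18 (0.989) and Tango6 (0.989), chosen among 8186 genes at 10 CPM or more. Of those genes 45 had r of at least 0.95. The points share their libraries and depth, and the values are given as a description.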

How the data were processed

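Per the labels' protocols, nuclei were fixed with formaldehyde, stained for NeuN and sorted, RNA was isolated by a kit for fixed tissue, and NEBNext Ultra II libraries were sequenced. The authors deposited whole-number counts per gene, 1 column for each library and not normalized. Subread and mm10 are named in the submitters' processing notes. Not given in the sources used here: versions, annotation, strand use and the handling of reads with several matches. Of 24594 NCBI gene identifiers, 24570 matched RefSeq GRCm38.p6, which gave symbols and coordinates, and 24 did not. Exon lengths (the union of a gene's exons) are from GENCODE vM21, on the same assembly. The 1 unmatched entry with most counts took 24.5% to 26.7% of a library and stayed in the library sizes.

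Counts were tested in R 4.3.3 with edgeR 4.0.16: filterByExpr defaults (13115 genes), TMM scaling, robust glmQLFit and glmQLFTest for genotype over all 6 libraries, two-sided, with Benjamini-Hochberg adjustment over all tested genes and a threshold of 0.05. CPM are counts per 1000000 of the library total times its TMM factor. Log2 fold changes are cKO over WT. Values are means ± SD of 3 libraries, and intervals are 95% intervals of the same fit. Ratios were compared by exact two-sided permutation, which cannot go below 0.1. Alternatives were scaling by library size or relative log expression, library sizes without the 4 most abundant entries, no filter, DESeq2 1.42.0, limma-voom (limma 3.58.1), the replicate block and leaving out each library. The 10 genes and the lists were chosen with earlier results of these data known. Some genes of the lists are not reported here. From each list, markers included, the text names up to 4 called genes or, with none called, the 2 of smallest p, all paralogues, neighbours within 20 kb, and the 3 genes most correlated with the gene of smallest p. Gabra6, Rbfox3, Atoh1, Ttr and Cldn5 are named besides as defining markers. Foxp2, Skor2 and Pcp2 are named as the Purkinje cell genes with a positive log2 fold change.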

Additional observations from a re-analysis of the deposited data

How the results depend on the processing

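None of the 10 genes was called in any of 13 alternatives, and 6 to 7 of them had a positive log2 fold change. Barhl1 was at -0.024 without cKO replicate 3 (0.067 without cKO replicate 2), and Nfia at -0.10 without WT replicate 2 (0.14 without WT replicate 3). The other 8 kept their sign. The count of all genes called moved from 76 to 277 with no filter on low counts, 117 with DESeq2 and 42 with limma-voom, and to between 13 (without WT replicate 3) and 249 (without WT replicate 1) with a library left out. The Zic4 to Zic1 ratio stayed between 0.19 and 0.36 (log2 difference) and the Zic2 to Zic1 ratio between 0.16 and 0.21 in their 8 alternatives. The Nfib to Nfia ratio ran from -1.14e-05 to 0.13 and the En2 to Pax6 ratio from -0.18 to 0.025 with a library left out. The cause was not tested.

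It is not known whether replicate numbers pair the samples. Deviations of same-numbered libraries correlated at 0.26, 0.04 and -0.01 for replicates 1, 2 and 3, and those of differently numbered libraries at -0.16 to 0.13. Replicate 1 of each genotype was also the library with high Xist. With the replicate block edgeR called 90 genes and 0 of the 10. Scaling by library size alone shifted the median log2 fold change of all genes to 0.03 and gave 69 higher and 32 lower calls, against 42 and 34 with TMM, so that 68.3% of calls were higher with library size alone and 55.3% with TMM. For Etv1 the coefficient of variation was 12.7% in cKO and 11.7% in WT, against at most 4.30% from counting. For Barhl1 it was 7.00% in cKO and 3.91% in WT, within the 8.80% that counting gives.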
